A study of Macaca mulatta with 4 samples.

Results

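Proteoglycan and hyaluronan genes were examined in RF/6A. This cell line comes from the rhesus macaque (Macaca mulatta) and its labels call its cells chorioretinal, that is, of the ocular choroid and retina. The group was defined by 39 gene symbols covering small leucine-rich proteoglycans, large hyaluronan-binding proteoglycans and their link proteins, the enzymes and receptors of hyaluronan, and the cell-surface syndecans and glypicans. Of these, 33 were matched to a row of a table of 21314 rhesus genes, and KERA, OMD, NCAN, HAPLN1, GPC1 and GPC2 were not matched. The study asked whether RF/6A cells behave as endothelium.

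Total RNA was sequenced from 4 libraries that form a single group, titled static. All 4 came from the line as bought from a cell repository, and the labels name no genetic change, agent or time course. The cells were kept at 37 degrees and 5% CO2 in Dulbecco's Modified Eagle Media with penicillin, streptomycin and 10% fetal bovine serum that had been heat inactivated. RF/6A is 1 established line, and nothing in the labels says that the libraries came from separate cultures, so SDs measure the spread between these samples, which may be technical. With 1 group there was no contrast to test, and the values below are levels and their spread over libraries.

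A proteoglycan is a core protein that carries long sulphated sugar chains, the glycosaminoglycans chondroitin, dermatan, heparan or keratan sulphate. Small leucine-rich proteoglycans bind collagen fibrils and regulate their thickness and spacing, which in the eye matters for the cornea and sclera. Hyaluronan is a glycosaminoglycan with no core protein and no sulphate. It is spun out at the plasma membrane by hyaluronan synthases, bound by receptors such as CD44 and by versican and its relatives, and cut by hyaluronidases. Syndecans span the membrane and glypicans are held to it by a lipid anchor, and both present growth factors on heparan sulphate chains.

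Total estimated counts were between 20366946 and 20550610 per library. Levels are given as CPM, a gene's counts divided by the library size and set to a common total, where the size was adjusted by TMM (a trimmed mean of log ratios between libraries). These counts are not divided by transcript length, so a value compares 1 gene between libraries and does not rank 1 gene against another. Library 2 stood apart. Its Pearson correlation of log2 levels with libraries 1, 3 and 4 was 0.80 to 0.83 over 12453 genes, against 0.98 to 0.99 among those libraries, and genes are not independent replicates. Ribosomal protein genes took 16.1% of its counts, against 6.47% to 7.11% in the others, and rows without a symbol 21.7% against 13.1% to 13.9%. Whether RNA quality, library preparation or culture had a part in its values was not tested. Member means with an SD are given with and without it, on the same scaling.

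The line was checked against cell type markers. All 8 fibroblast and mesenchymal markers reached 1 CPM in every library. The gene named from each list is the one with the highest mean CPM, which takes no account of length. Here it was FN1, which encodes fibronectin, at 14908, 3228, 13638 and 12619.6 CPM in libraries 1 to 4. Of 9 matched endothelial markers 1 did, PECAM1 at 2.05, 2.097, 3.41 and 2.397 CPM, and ROBO4 had no count. A further 4 reached 1 CPM in some libraries, KDR and ESAM in 3, ERG in 2 and CDH5 in 1. KDR measured 2.50, 0.432, 2.07 and 1.49 CPM and fell below 1 CPM in library 2 alone. Of 4 matched markers of retinal pigment epithelium 2 reached 1 CPM in every library. They were BEST1 at 15.1, 1.48, 29.8 and 15.2 CPM and RPE65 at 1.18, 1.23, 1.35 and 2.04 CPM. The others were TYR, with no count, and RLBP1, with 0, 1, 0 and 1 counts. Of 6 matched cartilage markers 1 did, COL2A1 at 6.28, 19.1, 8.36 and 7.96 CPM, highest in library 2, and COL9A2 had no count. Of 6 matched glial and neuronal markers 2 did, among them SNAP25 at 9.55, 6.66, 7.86 and 9.04 CPM, and OLIG2 had no count. Of 8 blood cell markers 2 did, LYZ at 8.51, 5.49, 9.66 and 7.24 CPM and CD68 at 5.82, 9.07, 5.48 and 6.69 CPM, and CD3E and ITGAM had no count. All 4 matched epithelial markers did, among them KRT18 at 951, 3487, 983 and 1077 CPM. KDR, ESAM, ERG, CDH5, RPE65, RLBP1 and CD68 were named after their values were seen.

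Most of the genes were detected. A gene is called expressed here when it reached 1 CPM in every library. Of the 33 matched members, 22 did (66.7%), against 52.9% of all rows of the table and 64.2% of the rows that carry a symbol, so the share lay close to that of named genes. A further 5 reached 1 CPM in some libraries, 6 stayed below 1 CPM in every library, and 1 of those 6, HAS1, had no count. At least 10 counts in every library were found for 26 members, or 78.8%, against 57.3% of all rows. The share at that threshold among rows with a symbol was not computed. Together the 33 genes took 0.259% to 0.339% of each library's counts. The median over the 33 members was 3.38 ± 0.55 on the log2(CPM + 0.5) scale (SD, n = 4), beside 3.13 ± 0.22 for the 17534 rows with any count. In libraries 1, 3 and 4 the members' median was 3.58, 3.64 and 3.74, and it was lower in library 2, at 2.57. The median of all rows with a count was also lower there, at 2.80 against 3.23 to 3.25.

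**Figure D1:**
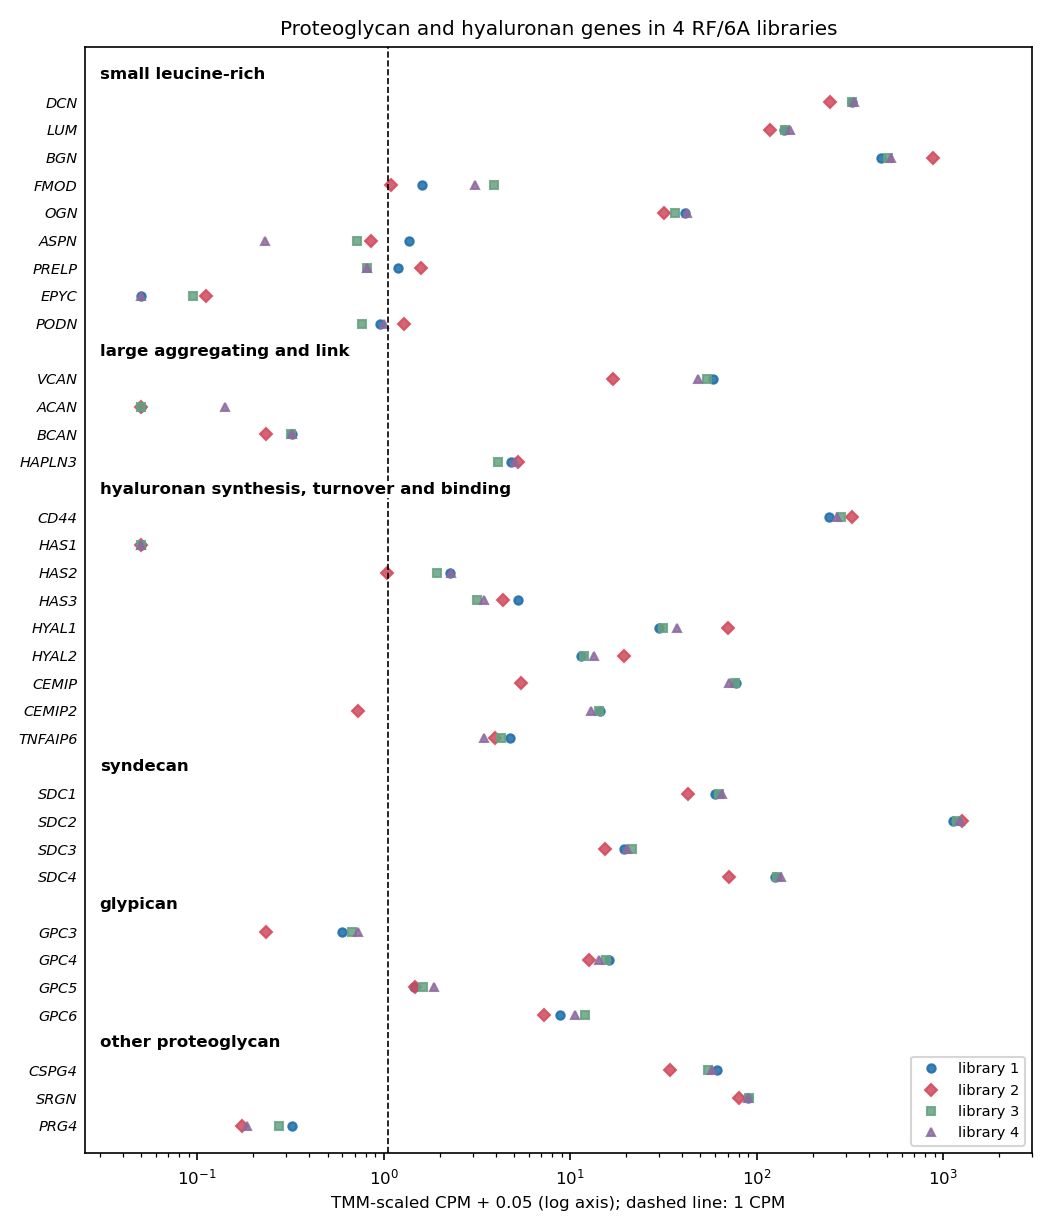
Points show each gene's level in each RF/6A library, in TMM-scaled CPM + 0.05 on a log axis, with genes grouped by class and a dashed line at 1 CPM. DCN, LUM, BGN, CD44, SDC2 and SDC4 lie right of the line in all libraries, HAS1 sits at the far left with no count, and library 2 (diamonds) lies far left of the others for CEMIP and CEMIP2.

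Among the small leucine-rich proteoglycans 5 of 9 matched genes were expressed in every library, and those 5 were DCN, LUM, BGN, OGN and FMOD. DCN (ENSMMUG00000016997) encodes decorin, which coats collagen fibrils and binds transforming growth factor beta, and it measured 323, 247, 327 and 332 CPM in libraries 1 to 4. Its mean was 307 ± 40.2 CPM (SD, n = 4), and without library 2 it was 327 ± 4.32 CPM (n = 3). Library 2 was the lowest, and the coefficient of variation (CV) among the other 3 was 1.32%. LUM (ENSMMUG00000016995), which encodes lumican, a keratan sulphate proteoglycan needed for corneal transparency, measured 139.6, 118, 143 and 151 CPM. Here too library 2 was lowest, with a mean of 138 ± 13.9 CPM over 4 libraries and 144 ± 5.92 CPM without it.

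BGN (ENSMMUG00000012743), which encodes biglycan, a relative of decorin with a pair of chondroitin or dermatan sulphate chains, went the other way. It measured 464, 881, 508 and 523 CPM, so library 2 held the highest value, and its mean was 594 ± 193 CPM with library 2 and 498 ± 30.9 CPM without it. The DCN to BGN ratio of counts within a library was 0.697, 0.643 and 0.635 in libraries 1, 3 and 4 and 0.281 in library 2. Library size cancels in such a ratio, as does a length effect shared by the 4 libraries, but not one particular to library 2. OGN, which encodes osteoglycin (mimecan), measured 41.4, 31.95, 36.3 and 42.4 CPM and was lowest in library 2. FMOD, which encodes fibromodulin, a collagen-binding relative of lumican, measured 1.55, 1.05, 3.86 and 3.03 CPM. It varied even among libraries 1, 3 and 4, with a CV of 41.7%, the highest among the 22 expressed members. With 34, 17, 86 and 67 counts in libraries 1 to 4, its level rests on few reads. The part of counting error in the FMOD spread was not tested.

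The other 4 small leucine-rich genes were near or below 1 CPM. PRELP, which encodes a heparin-binding basement membrane anchor, measured 1.14, 1.54, 0.764 and 0.769 CPM and passed 1 CPM in libraries 1 and 2. PODN, which encodes podocan, measured 0.9099, 1.23, 0.719 and 0.9497 CPM and passed it in library 2 alone. ASPN, which encodes asporin, an inhibitor of transforming growth factor beta in cartilage, had 29, 13, 15 and 4 counts, or 1.32, 0.802, 0.674 and 0.181 CPM, so its libraries ranged from above 1 CPM to near the floor set by 3 counts (0.135 to 0.185 CPM). EPYC, which encodes epiphycan of growth plate cartilage, had 0, 1, 1 and 0 counts. Over the 4 libraries EPYC could reach 0.0875 CPM at most by counting error alone (exact 95% Poisson limit). The class median was 1.502 ± 0.56 on the log2(CPM + 0.5) scale, with 1.03 in libraries 1 and 2, 2.13 in library 3 and 1.82 in library 4.

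Several of these genes lie side by side on the chromosome, a property that the choice of genes did not use. In the T2T-MMU8v2.0 assembly (RefSeq), EPYC, KERA, LUM and DCN follow each other on chromosome 11 with no other protein-coding gene starting between them. OGN, OMD and ASPN do so on chromosome 15, and FMOD and PRELP on chromosome 1. Within the first cluster DCN and LUM were expressed in every library while EPYC had 2 counts in all. Within the second, OGN was expressed in every library and ASPN reached 1 CPM in library 1 alone. OGN and ASPN both lie within the span of the gene CENPP in that assembly, and strand was not given in the sources used here, so reads of CENPP cannot be told apart from theirs where they overlap. DCN and CEMIP each overlap an uncharacterised protein-coding locus there, with the same uncertainty.

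Of the large aggregating proteoglycans, which bind many to a hyaluronan chain, VCAN was the only one expressed of the 3 matched. VCAN (ENSMMUG00000011513) encodes versican, the form made by fibroblasts and developing mesenchyme, and measured 58.6, 17.03, 54.002 and 48.2 CPM in libraries 1 to 4. Library 2 was 3.44-fold below the highest library (4.69-fold with plain CPM). The mean was 44.5 ± 18.8 CPM (SD, n = 4) with library 2 and 53.6 ± 5.23 CPM without it. The ratio of BGN to VCAN counts, chosen after the values were seen, was 7.91 to 10.9 in libraries 1, 3 and 4 and 51.8 in library 2.

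ACAN, which encodes aggrecan, the load-bearing proteoglycan of cartilage, had 0, 0, 0 and 2 counts, which allows at most 0.0875 CPM over the 4 libraries (exact 95% Poisson limit). BCAN, which encodes brevican, a brain proteoglycan, had 6, 3, 6 and 6 counts and an upper limit of 0.389 CPM. The link proteins lock such proteoglycans onto hyaluronan. HAPLN3 measured 4.78, 5.18, 4.04 and 5.02 CPM, with a mean of 4.76 ± 0.503 CPM, or 4.61 ± 0.508 CPM without library 2. HAPLN3 and ACAN are immediate neighbours on chromosome 7 in T2T-MMU8v2.0, as are VCAN and HAPLN1 on chromosome 6. In this line HAPLN3 was expressed in every library beside an ACAN gene with almost no reads.

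Of the 9 hyaluronan genes, all matched, 6 were expressed in every library. Hyaluronan synthases gave few reads. HAS1 was without a single count, and its exact 95% Poisson upper limit over the pooled counts was 0.0447 CPM. HAS2, the main synthase of mesenchymal tissue, had 49, 16, 42 and 50 counts, or 2.23, 0.987, 1.89 and 2.26 CPM, and its value in library 2 kept it just below the expressed set. HAS3 had 114, 70, 69 and 75 counts, or 5.19, 4.32, 3.0999 and 3.39 CPM. The share of HAS2 in the HAS2 and HAS3 counts was 30.1%, 37.8% and 40.0% in libraries 1, 3 and 4 and 18.6% in library 2, and no length was available to turn that into a share of molecules. HAS3 overlaps CHTF8 and DERPC in the RefSeq assembly, so some of its reads may belong to them.

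CEMIP and CEMIP2 showed the widest spread between libraries of all members with at least 10 counts in each. CEMIP (ENSMMUG00000002038) encodes a secreted hyaluronan-binding protein that fibroblasts need to break hyaluronan into fragments. It measured 77.2, 5.43, 76.6 and 70.9 CPM in libraries 1 to 4. Library 2 was 14.2-fold below the highest library (19.3-fold with plain CPM), whereas libraries 1, 3 and 4 had a CV of 4.65%. Its mean was 57.5 ± 34.8 CPM (SD, n = 4), and 74.9 ± 3.48 CPM without library 2. CEMIP2 (ENSMMUG00000002357, also called TMEM2), a transmembrane relative of CEMIP linked to hyaluronan breakdown at the cell surface, measured 14.3, 0.679, 14.2 and 12.9 CPM. Library 2 had 11 counts of it against 285 to 316 in the others, a 21.1-fold difference between lowest and highest (28.7-fold with plain CPM). Its mean was 10.5 ± 6.596 CPM with library 2 and 13.8 ± 0.797 CPM without it, and without that library it counted as expressed. The ratio of CEMIP to CEMIP2 counts was 5.38 to 5.50 in libraries 1, 3 and 4 and 8 in library 2, and both genes were low there.

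The hyaluronidases of the other family were not low in library 2. HYAL1 (ENSMMUG00000020121), the lysosomal hyaluronidase, measured 30.03, 70.4, 31.3 and 37.3 CPM, and library 2 was the highest. HYAL2, a hyaluronidase anchored to the cell surface, measured 11.4, 19.3, 11.8 and 13.3 CPM, again highest in library 2. Their means were 42.3 ± 19.05 CPM and 13.97 ± 3.65 CPM (SD, n = 4), or 32.9 ± 3.89 CPM and 12.2 ± 1.01 CPM without library 2. HYAL1 and HYAL2 overlap in the T2T-MMU8v2.0 assembly, so reads from the shared stretch cannot be assigned with certainty. The ratio of HYAL1 to CEMIP counts, a pair chosen after the values were seen, was 0.389, 0.409 and 0.526 in libraries 1, 3 and 4 and 12.98 in library 2. The ratio of HYAL2 to CEMIP2 was 0.797 to 1.035 in the former and 28.5 in the latter. These ratios do not depend on the scaling between libraries.

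**Figure D2:**
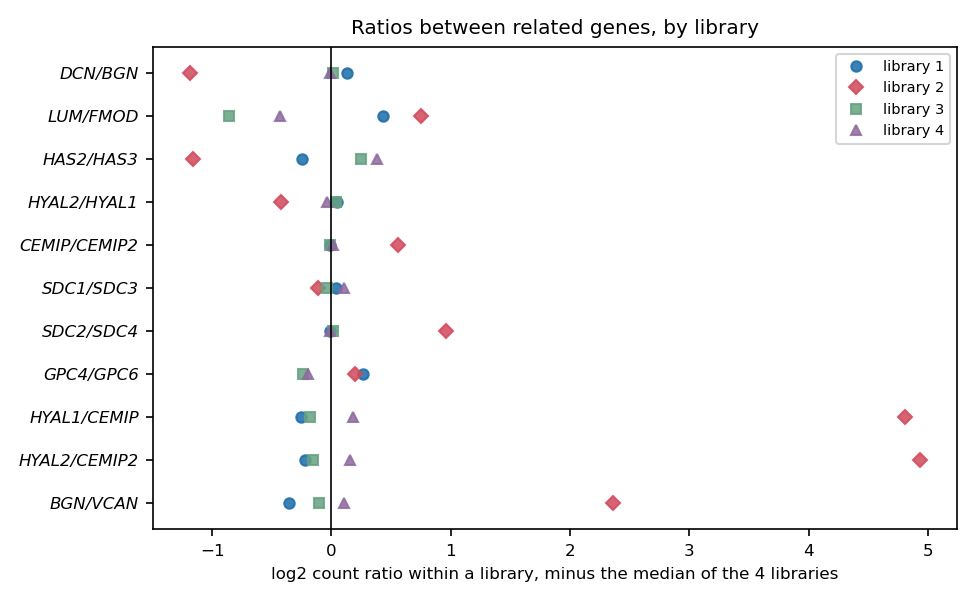
Points show 11 pairs of related genes in each library. Each is the log2 ratio of their counts minus the median of that ratio over the 4 libraries. Library size cancels, as does a length effect shared by the 4 libraries. A length effect particular to library 2 would not cancel and was not tested. Library 2 (diamonds) lies near 5 for HYAL1/CEMIP and HYAL2/CEMIP2 and above 2 for BGN/VCAN, the 3 pairs picked after the values were seen, while the 4 libraries stay close for SDC1/SDC3.

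The receptor and the binding protein of hyaluronan differed less between libraries than CEMIP and CEMIP2. CD44 (ENSMMUG00000004327), the main cell-surface receptor for hyaluronan, measured 244, 324, 282 and 269 CPM, with a mean of 279.8 ± 33.5 CPM (SD, n = 4), or 265 ± 19.4 CPM without library 2. Its 4 libraries lay within 1.33-fold of each other. TNFAIP6 encodes TSG-6, which transfers protein chains onto hyaluronan in inflamed tissue, and measured 4.69, 3.89, 4.22 and 3.39 CPM. Its mean was 4.05 ± 0.546 CPM, or 4.1003 ± 0.656 CPM without library 2. Library 2 lay inside the range of the others with TMM and was lowest with plain CPM. The class median was 3.30 ± 0.69 on the log2(CPM + 0.5) scale, with 2.27 in library 2 and 3.58 to 3.74 in the others.

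All 4 syndecans were expressed in every library. SDC2 (ENSMMUG00000000963), the syndecan typical of fibroblasts and other mesenchymal cells, measured 1137, 1267, 1189 and 1232 CPM. Its highest and lowest libraries differed by 1.11-fold, the narrowest TMM-scaled span among the 22 expressed members. With plain CPM it spanned 1.32-fold, and CD44 had the narrowest span, at 1.19-fold. The mean of SDC2 was 1206 ± 56.2 CPM (SD, n = 4), or 1186 ± 47.7 CPM without library 2. SDC4 (ENSMMUG00000048424), the syndecan of focal adhesions, measured 125, 71.1, 129 and 135 CPM and was lowest in library 2. Its mean was 115 ± 29.6 CPM with library 2 and 129.6 ± 5.29 CPM without it. The ratio of SDC2 to SDC4 counts was 9.11 to 9.23 in libraries 1, 3 and 4 and 17.8 in library 2.

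SDC1 encodes the syndecan of epithelia and plasma cells and SDC3 that of nerve and muscle. SDC1 measured 59.7, 42.7, 62.4 and 65.3 CPM and SDC3 19.3, 15.4, 21.3 and 20.1 CPM, both lowest in library 2. The ratio of SDC1 to SDC3 counts stayed between 2.78 and 3.24 in all 4 libraries, with library 2 at its lower end. Without library 2 the CV of the 4 syndecans was between 4.02% and 4.98%. The class median was 6.32 ± 0.35 on the log2(CPM + 0.5) scale, with 5.80 in library 2 and 6.44 to 6.56 in the others.

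Of the 4 matched glypicans 3 were expressed in every library. GPC4 measured 16.2, 12.6, 15.5 and 14.2 CPM and GPC6 8.78, 7.16, 11.995 and 10.6 CPM, with means of 14.6 ± 1.598 CPM and 9.64 ± 2.12 CPM (SD, n = 4), or 15.3 ± 1.02 CPM and 10.5 ± 1.61 CPM without library 2. Both genes belong to the same branch of the family and were lowest in library 2. GPC5, the closest relative of GPC3 in the family, measured 1.41, 1.42, 1.57 and 1.81 CPM, from 23 to 40 counts a library. GPC3, a fetal glypican that restrains Hedgehog signalling and is lost in an overgrowth syndrome, had 12, 3, 14 and 15 counts and an upper limit of 0.715 CPM over the 4 libraries (exact 95% Poisson). The 4 matched glypican genes sit in neighbouring pairs, GPC4 with GPC3 on chromosome X and GPC5 with GPC6 on chromosome 17 (T2T-MMU8v2.0). In the first pair GPC4 was expressed and GPC3 below 1 CPM in every library, and in the second both were expressed.

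CSPG4, SRGN and PRG4 belong to no family above. CSPG4 (ENSMMUG00000016104) encodes NG2, a chondroitin sulphate proteoglycan of pericytes, glial precursors and immature mesenchyme. It measured 61.4, 34.5, 55.1 and 57.8 CPM, lowest in library 2. SRGN (ENSMMUG00000037735) encodes serglycin, the proteoglycan of secretory granules in blood cells and endothelium. It measured 89.5, 80.7, 90.8 and 89.4 CPM in libraries 1 to 4, a mean of 87.6 ± 4.61 CPM (SD, n = 4), or 89.9 ± 0.742 CPM without library 2. The CV among libraries 1, 3 and 4 was 0.825%. Of the 8 blood cell markers LYZ and CD68 were expressed and CD3E and ITGAM had no count. Of the 9 matched endothelial markers PECAM1 was expressed, 4 reached 1 CPM in some libraries and ROBO4 had no count. Their levels are not divided by transcript length and are not set against that of SRGN. The part of either cell type in the SRGN level was not tested. In bulk RNA, fewer cells that express a gene and less of its RNA in each cell cannot be told apart. PRG4, which encodes lubricin of joint surfaces, had 6, 2, 5 and 3 counts, below 1 CPM in every library.

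The spread between libraries came mainly from library 2. Among the 22 expressed members, 4 (FMOD, VCAN, HYAL1 and CEMIP) had a highest library over 2 times the lowest, or 18.2%, against 53% of the 11281 rows at 1 CPM or more in every library. CEMIP2 (21.1-fold) and HAS2 (2.29-fold) fell below 1 CPM in library 2 alone and are not counted here. The rows were filtered in the same way. Without library 2 the count among the 22 was 1, FMOD, against 2.59% of the same rows. The median ratio of highest to lowest library was 1.46 over the 22 members and 2.09 over those rows, and 1.15 and 1.17 without library 2. Without library 2 the median CV was 6.99% over the 22 members, against 8.24% over those rows.

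Dixon's gap test asks whether the gap between an extreme library and its nearest neighbour takes up most of the range. On log2(CPM + 0.5), library 2 lay apart from the other 3 in 6 of 25 members with a mean of at least 1 CPM, against 36.2% of 12453 rows. These were DCN, VCAN, CEMIP, CEMIP2, SDC4 and SRGN, with library 2 the lowest in each, against 21.5% of rows in that direction. None of the 25 had another library apart. Library 2 was lowest of the 4 in 13 of the 22 expressed members, against 46.7% of rows, and highest in 6, against 45.2%. These counts depend on the scaling, because plain CPM lowers library 2 by a median of 0.41 on the log2 scale relative to the 4-library median, where TMM leaves it lower by a median of 0.042. With plain CPM library 2 lay apart in 11 members, against 37.6% of rows, and was lowest in 18 of the 22, against 58.6% of the rows at 1 CPM or more in every library on that scale. CD44, SDC2 and HAPLN3 then turned from highest to lowest in library 2, and TNFAIP6 and GPC5 from between the others to lowest. BGN, HYAL1 and HYAL2 stayed highest there, and CEMIP, CEMIP2, VCAN, DCN and SDC4 stayed lowest.

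**Figure D3:**
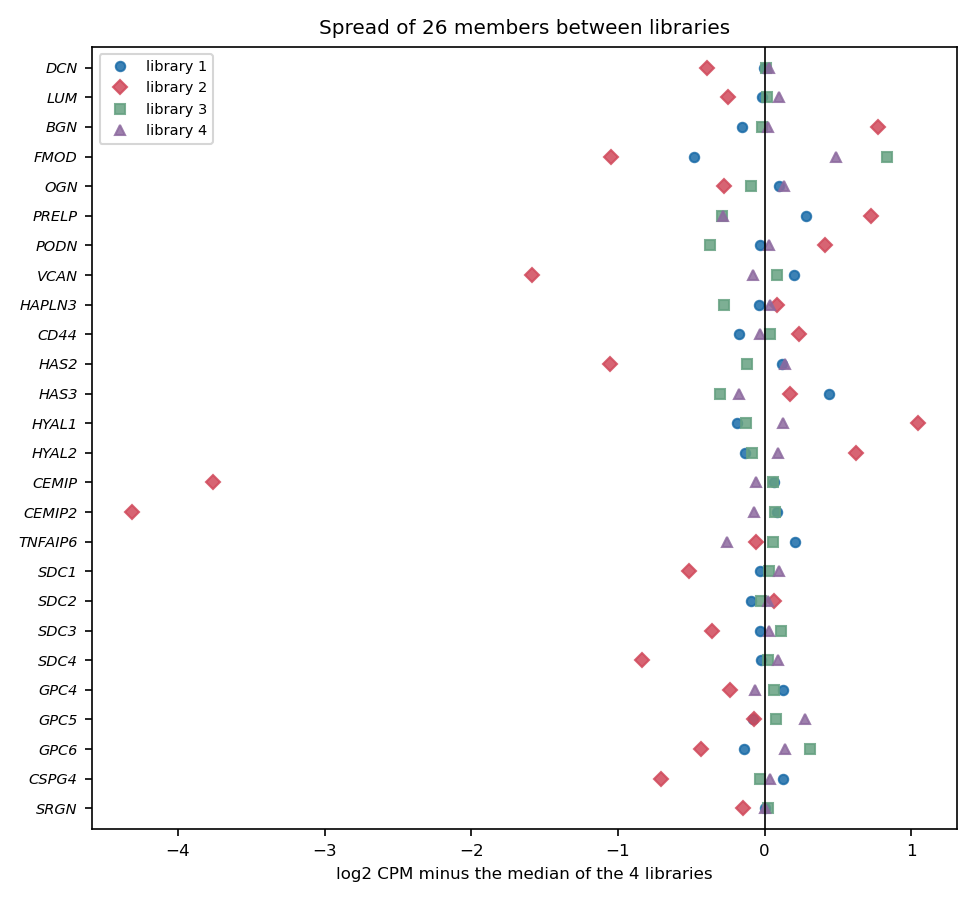
For the 26 members with at least 10 counts in every library, each point is the log2 CPM of 1 library minus the median of the 4 libraries. Libraries 1, 3 and 4 cluster near 0 for most genes, and library 2 (diamonds) lies far to the left for CEMIP and CEMIP2 and to the right for HYAL1, BGN and PRELP.

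Most of the genes that build the sugar chains were detected. Over 5 lists of synthesis genes, 44 of 55 matched genes reached 1 CPM in every library, or 80.0%, beside 52.9% of all rows and 64.2% of the rows with a symbol. Of those 44, 25 had a highest library over 2 times the lowest, or 56.8% beside the 53% of all such rows, and 1 did without library 2. Library 2 was lowest in 26 of them (59.1%, beside 46.7% of such rows) and highest in 14 (31.8%, beside 45.2%). With plain CPM it was lowest in 33 and highest in 9, beside 58.6% and 33% of the rows on that scale. The genes named below are the 3 with the highest mean CPM of each list unless said otherwise.

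Each chondroitin, dermatan or heparan sulphate chain starts from a short linker on a serine of the core protein. Of the 5 matched linker genes 4 were expressed. B3GAT3, the last enzyme of the linker, measured 18.8, 39.3, 18.2 and 18.99 CPM in libraries 1 to 4, and B4GALT7, which adds its first galactose, 6.46, 13.5, 6.87 and 6.29 CPM. Both were highest in library 2, while FAM20B, the kinase that phosphorylates the linker, measured 10.1, 3.89, 9.52 and 8.9997 CPM and was lowest there. XYLT1, a xylosyltransferase that starts the linker, was below 1 CPM in every library, with 0, 0, 2 and 4 counts, and XYLT2 was not matched. XYLT1 was named after its values were seen.

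Of 14 matched genes for chondroitin and dermatan sulphate 12 were expressed, and CHST13 had no count. CHST15, which adds a further sulphate to chondroitin sulphate, measured 52.7, 8.64, 57.4 and 47.3 CPM, and DSE, the epimerase that turns chondroitin into dermatan sulphate, 44.2, 12.9, 45.9 and 41.1 CPM. Both were lowest in library 2. CHPF, a chondroitin-polymerising factor, measured 28.9, 62.8, 29.2 and 39.2 CPM and was highest there. CSGALNACT2, which starts chondroitin chains and was chosen after its values were seen, measured 15.2, 1.23, 17.4 and 13.3 CPM, a 14.1-fold span. With plain CPM the span was 19.3-fold. Without library 2 none of the 12 expressed genes of this list spanned over 2-fold.

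For heparan sulphate 12 of 17 matched genes were expressed, and HS6ST3 had no count. EXT1, a subunit of the heparan sulphate polymerase, measured 392, 496, 411 and 450.4 CPM. EXTL2, a related transferase, measured 88.03, 39.9, 98.3 and 113 CPM, and NDST1, which starts sulphation of the chain, 319, 140.2, 321 and 319 CPM. EXT1 was highest in library 2 with TMM and lowest there with plain CPM, at 394 CPM against 423 to 485 CPM. The enzymes that modify the chain after NDST1 differed in how library 2 compared with the others. GLCE, the epimerase that makes iduronic acid, measured 20.5, 0.987, 21.97 and 16.9 CPM, HS2ST1, the uronosyl 2-O-sulphotransferase, 74.4, 6.11, 74.98 and 60.2 CPM and HS6ST2, a 6-O-sulphotransferase, 11.7, 0.802, 11.7 and 8.77 CPM. Library 2 was far the lowest in these 3, and their spans were 22.3-fold, 12.3-fold and 14.6-fold. Without library 2 their means were 19.8 ± 2.603 CPM, 69.9 ± 8.38 CPM and 10.7 ± 1.71 CPM (SD, n = 3). HS3ST3A1, a 3-O-sulphotransferase, measured 5.73, 9.19, 5.98 and 5.61 CPM and was highest in library 2, as was HS3ST1, with 16, 22, 7 and 16 counts. These 5 genes were chosen after their values were seen.

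Keratan sulphate decorates lumican and fibromodulin. Of the 5 matched genes for it 3 were expressed. CHST2, a sulphotransferase of N-acetylglucosamine, measured 8.37, 15.9, 6.65 and 8.005 CPM, B4GALT4, a galactosyltransferase, 10.9, 2.41, 8.13 and 14.2 CPM and CHST6, the corneal sulphotransferase, 3.41, 4.07, 3.64 and 3.93 CPM. B3GNT7, which extends keratan sulphate, and CHST1, which sulphates its galactose, had no count in any library.

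Donor supply was read in 14 genes, all matched, of which 13 were expressed. UGP2, which makes UDP-glucose, measured 418, 202, 481 and 408 CPM, UAP1, which makes UDP-N-acetylglucosamine, 159.96, 77.3, 172 and 167 CPM and BPNT2, a Golgi phosphatase that clears a by-product of sulphation, 209, 62.9, 189.9 and 215 CPM. All 3 were lowest in library 2. SLC26A2, the sulphate transporter mutated in several cartilage dysplasias, was chosen after its values were seen. It measured 15.3, 0.555, 16.6 and 9.54 CPM and was lowest in library 2, where it had 9 counts, too few for a firm fold. UGDH, which makes the UDP-glucuronic acid that every chain here but keratan sulphate needs, was likewise chosen afterwards and measured 81.9, 41.4, 85.7 and 82.4 CPM.

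**Figure D4:**
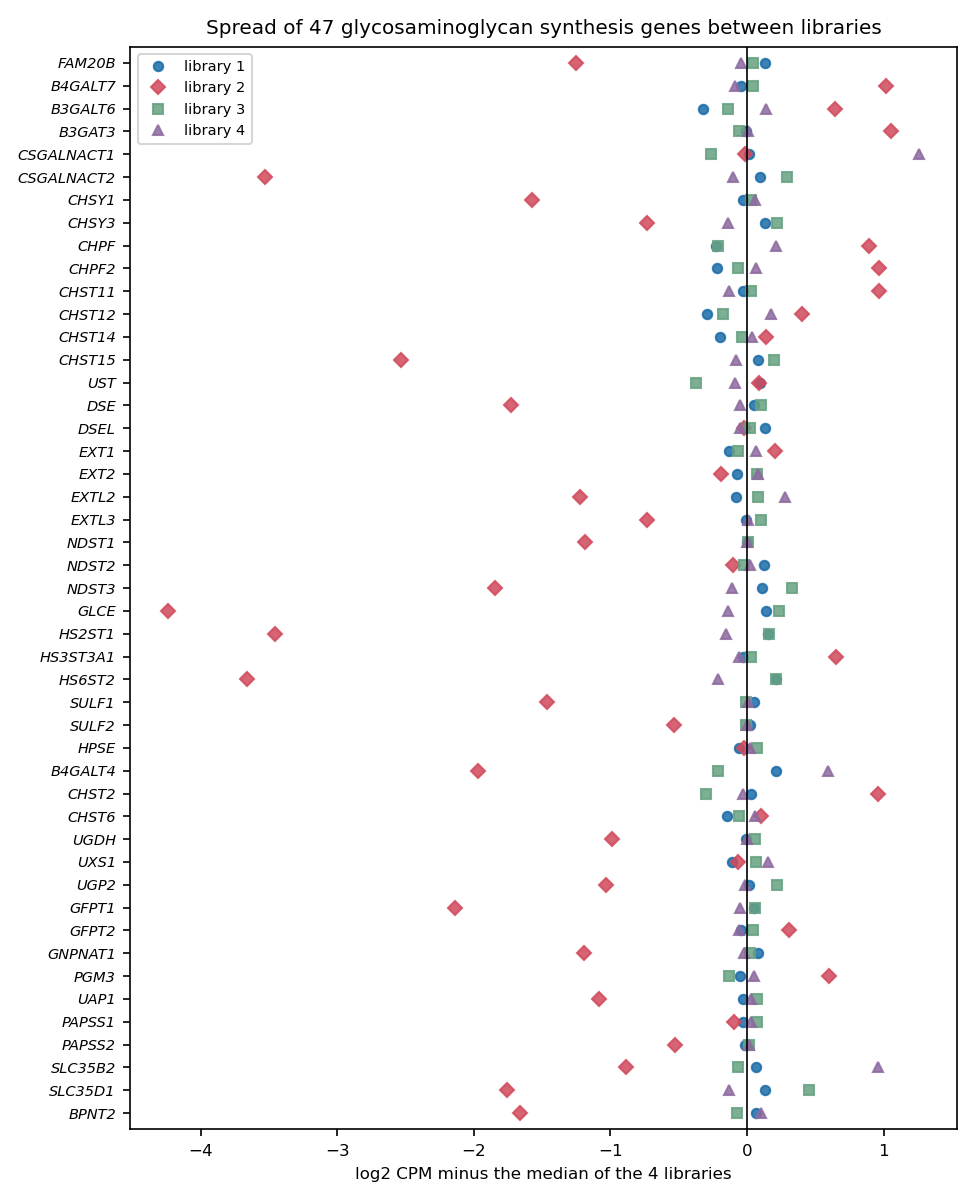
For the 47 glycosaminoglycan synthesis genes with at least 10 counts in every library, each point is the log2 CPM of 1 library minus the median of the 4 libraries. Library 2 (diamonds) reaches beyond 3 to the left for CSGALNACT2, GLCE, HS2ST1 and HS6ST2 and lies to the right for B4GALT7, B3GAT3, CHPF and CHPF2.

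Of 17 matched proteoglycans outside the 39 symbols, 7 were expressed (41.2%), beside 52.9% of all rows and 64.2% of rows with a symbol. COL18A1, the core of a basement membrane heparan sulphate proteoglycan, measured 246, 382, 229 and 258 CPM, AGRN, which encodes agrin, 106, 45.9, 97.7 and 94.5 CPM and TGFBR3, or betaglycan, which presents transforming growth factor beta to its receptors, 65.3, 25.2, 70.3 and 63.5 CPM. AGRN and TGFBR3 were lowest in library 2 and COL18A1 was highest there. The retinal interphotoreceptor proteoglycan IMPG2 was below 1 CPM in every library, with 9, 0, 4 and 3 counts, as was the vitreous gene OPTC, with 1, 0, 0 and 1 counts. Both were chosen after their values were seen. PRG3 and CD74 had no count. Of 14 further hyaluronan genes matched, 5 were expressed (35.7%), beside the 52.9% and 64.2% of rows given above. ITIH5, of the family whose heavy chains bind hyaluronan, measured 35.5, 22.3, 32.5 and 32.5 CPM. HMMR, a hyaluronan-binding protein of the mitotic spindle, measured 27.4, 11.1, 29.2 and 24.6 CPM. LAYN, a membrane hyaluronan receptor, measured 13.6, 19.99, 11.9 and 13.4 CPM. Hyaluronan receptors of lymphatic and sinusoidal endothelium were also picked afterwards. LYVE1 had 1, 1, 0 and 5 counts and STAB1 3, 5, 1 and 4 counts, both below 1 CPM in every library, while STAB2 had 0, 30, 2 and 1 counts and reached 1.85 CPM in library 2.

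**Figure D5:**
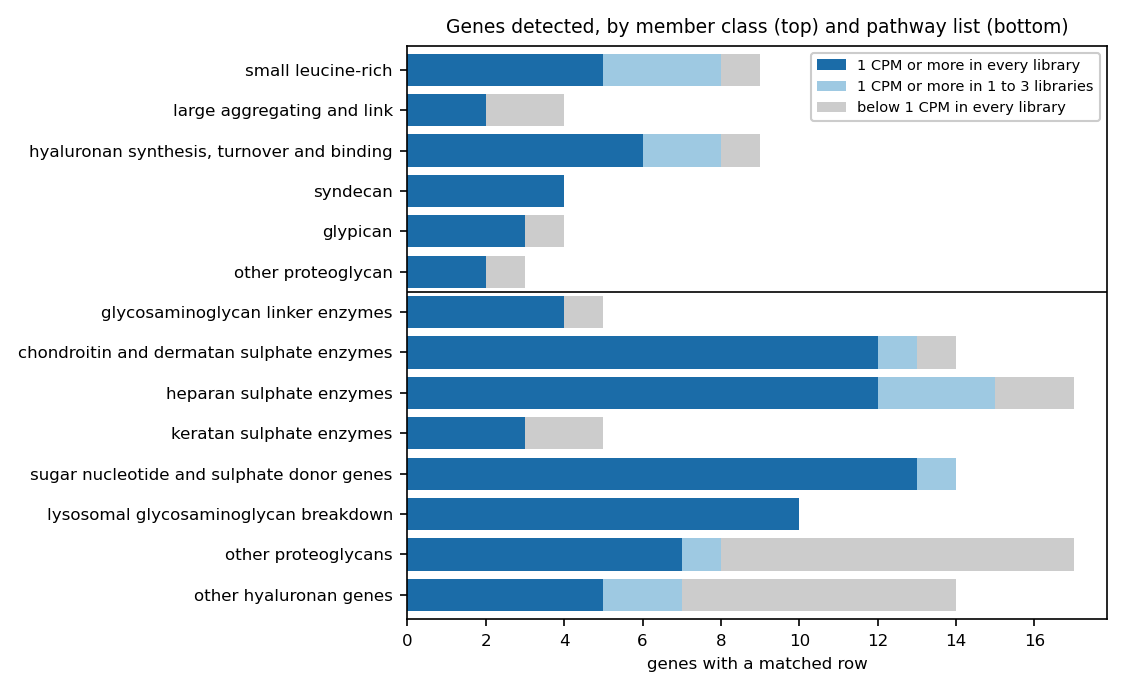
Bars count the genes with a matched row in each class of members (above the line) and each further list of glycosaminoglycan, proteoglycan and hyaluronan genes (below it), split by whether they reached 1 CPM in every library, in some or in none. All 4 syndecans and all 10 lysosomal breakdown genes reached 1 CPM in every library, against 7 of 17 other proteoglycans and 5 of 14 other hyaluronan genes.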

How the data were processed

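RNA sequencing of 4 static RF/6A libraries was analysed. The authors deposited estimated counts per Ensembl rhesus gene, whole numbers in the table. Per the submitters' processing notes the tools were Salmon and DESeq2, with no version or role stated. Build, annotation release, strand and read length were not given in the sources used here. Estimation by Salmon shares reads among transcripts that match equally well, so overlapping or similar genes carry an assignment error. Besides the overlaps given above, PRG4 overlaps TPR and HAS1 overlaps FPR2 in T2T-MMU8v2.0. Among the further named genes B3GAT3, UGDH, HS3ST1, HMMR, LAYN, STAB1, CDH5 and ITGAM also overlap another protein-coding gene there. Symbols came from a table of Ensembl identifiers, which named 14654 of 21314 rows, and the 6660 others may hold unmatched genes. No transcript lengths were at hand and no sequence is shown.

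Scaling used TMM (R 4.3.3, edgeR 4.0.16), and summaries were computed in Python 3.11.15. Expressed means that all 4 libraries held 1 CPM or more. Class medians used log2(CPM + 0.5). Dixon's gap test used a critical value of 0.829, which flags about 1 in 20 groups of 4 by chance. Poisson limits (exact, 95%) were computed on the summed counts and, like the floor of 3 counts, cover counting error only. Depth was 20366946 to 20550610 counts per library.

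The members, lists, pairs and rules were chosen with earlier results of these data known. The text names every matched member, the 3 highest genes by mean CPM of each of 7 of the 8 pathway lists with those at 0, and the highest gene and those at 0 of each of 7 marker lists. Single genes of the other list, lysosomal breakdown, are not reported here. The rule foresaw CPM per kilobase, and mean CPM took its place. A planned test of ratios per kilobase between 15 related pairs was not made for the same reason. Ratios of counts are given in its place for 8 of the pairs, the others lacking a row or 10 counts in every library, and for 3 added pairs. The alternatives were plain CPM, DESeq2 1.42.0 size factors, leaving out each library (with the others scaled again or the scaling kept), count filters, another pseudocount and Dixon's test without logs. The code was tested on simulated data for 21314 genes, 200 of them, all well counted, changed in library 2. Dixon's test found library 2 apart in 58 of 100 genes changed 4-fold and in 100 of 100 changed 32-fold, and it flagged 4.95% of unchanged genes. A first simulation held 4-fold changes only, and the 32-fold changes and the restriction to well-counted genes were added after many of those were missed. A gene in which no library was found apart can therefore still hold a shift of several fold.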

Additional observations from a re-analysis of the deposited data

Results flagged for a closer look

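Dixon's gap test was run on 68 values of the named genes and classes, leaving out genes named after their values were seen. It found 1 library apart in 23 of the 68, or 33.8%. Chance alone would flag about 1 in 20, and library 2 alone lay apart in 36.2% of all rows tested, so the share of these genes lies near that of the whole table. In 22 of the 23 flagged values the library was library 2, which was lowest in 19 and highest in 3. Since these values come from the same library, they do not count as independent.

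Among the members, library 2 was low for DCN (247 CPM against 323 to 332 CPM in libraries 1, 3 and 4), VCAN (17.03 CPM against 48.2 to 58.6 CPM), CEMIP (5.43 CPM against 70.9 to 77.2 CPM), CEMIP2 (0.679 CPM against 12.9 to 14.3 CPM), SDC4 (71.1 CPM against 125 to 135 CPM) and SRGN (80.7 CPM against 89.4 to 90.8 CPM). For SRGN the gap is small in size, at 1.12-fold between highest and lowest, while the CV among the other 3 was 0.825%. Its flag rests on how close those 3 lie, and SRGN was not flagged with DESeq2 size factors. BCAN, at 0.185 CPM in library 2, and ACAN, at 0.0904 CPM in library 4, rest on 3 and 2 counts. The median of all members was also low in library 2 (2.57 on the log2(CPM + 0.5) scale), as were those of the hyaluronan class (2.27) and the syndecans (5.80).

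Among the further genes, library 2 was low for FAM20B (3.89 CPM), CHST15 (8.64 CPM), DSE (12.9 CPM), NDST1 (140.2 CPM), UAP1 (77.3 CPM), BPNT2 (62.9 CPM), AGRN (45.9 CPM), TGFBR3 (25.2 CPM) and FN1 (3228 CPM). It was high for B4GALT7 (13.5 CPM), B3GAT3 (39.3 CPM) and KRT18 (3487 CPM). Genes named after their values were seen are not counted above. Among them library 2 also lay apart and low for CSGALNACT2, GLCE, HS2ST1, HS6ST2 and UGDH, and apart and high for HS3ST3A1 and STAB2.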

How the results depend on the processing

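The number of expressed members (22) was 21 with plain CPM, 22 with DESeq2 size factors, 26 with at least 10 counts in every library or with filterByExpr, and 22 to 24 when 1 library was left out, the 24 being without library 2. Keeping only rows that pass filterByExpr removes low members, and it raised the class median on the log2(CPM + 0.5) scale to 4.55 for all members, 5.26 for small leucine-rich, 3.87 for large aggregating and link, 3.32 for glypican and 6.07 for other proteoglycan genes. A pseudocount of 0.1 CPM took the large aggregating and link median from 0.99 to 0.37, and leaving out 1 library and scaling again gave 0.94 to 1.06. Members with library 2 apart numbered 11 with plain CPM, and 5 with DESeq2 size factors and 6 without logs against 6. The count over 2-fold was 6 of 21 with plain CPM (beside 52.3% of rows) against 4 of 22, and 1 to 4 when 1 library was left out, the 1 being without library 2. Leaving out library 2 and scaling again moved the mean of 8 of 33 members by more than 1 SD. With the scaling of all 4 kept, an alternative chosen after seeing the data, no mean moved that far, nor did any without another library or with plain CPM or DESeq2 size factors. No paired analysis was possible because the 4 libraries form a single group. Ratios per kilobase and their alternatives were not computed. Genes under 10 counts in a library, such as ASPN, PRG4 and SLC26A2, are too shallow for a firm spread.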

Other observations

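Genes for the breakdown of glycosaminoglycans in lysosomes, where chains taken up from outside or from the cell surface are dismantled sugar by sugar, were all detected. All 10 matched genes reached 1 CPM in every library, beside 52.9% of all rows and 64.2% of the rows with a symbol, and IDUA and NAGLU were not matched. Of the 10 genes, 3 had a highest library over 2 times the lowest, beside 53% of all rows at 1 CPM or more in every library, and none did without library 2, beside 2.59%.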
